A study of Caenorhabditis elegans with 26 samples.

Results

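Between 22 h and 24 h of larval growth the level of miR-235-3p goes through a trough in wild-type *C. elegans*, and the hours 22, 23 and 24 h of the *mir-235(xe181[seed_mutant])* mutant (strain HW2643) are set here against the 6 hours around them, 19, 20, 21, 25, 26 and 27 h. The 3 mid-course and 6 flanking libraries were chosen by their labelled hour alone, and are 9 of the 26 libraries of the series. Because the flanks lie evenly on both sides, a steady rise or fall over the hours cancels, and what is left is a hump, a trough or a bend in the course of each miRNA. The mutant carries an edited *mir-235* in which nucleotides of the seed were mutated and the opposite hairpin strand was changed to fit. It was sampled as 1 strain. N2, the unedited wild type, served for comparison at the same hours (9 libraries). The strains were matched by hour and not by stage, and the paper reports minor variations in developmental tempo for the mutant. A difference in stage thus cannot be told apart from a difference between the strains. Both strains were plated as synchronized L1 larvae, got no treatment, were kept at 25 °C, and were collected as whole animals. Each hour gave 1 library per strain, so no hour has a replicate. The p-values of the fits measure only the spread of single libraries about a line with a mid-course step. Those of the permutation tests use no line and treat the hours as exchangeable.

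A miRNA is cut from a hairpin as a pair of short strands, of which the guide is loaded into an Argonaute protein and kept, and the passenger is mostly discarded. The guide finds its target mRNAs chiefly through its seed near the 5′ end. A passenger is short-lived, so that its level stays close to what is being made, whereas the level of a guide also depends on how fast it is lost. Larval development in *C. elegans* runs in cycles with the molts, and many genes are transcribed once in each cycle. miR-235 is the worm's miR-92 family member and keeps starved L1 larvae from resuming development.

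The 9 mutant libraries held 2658960 to 4279734 counts and the 9 N2 libraries 1342771 to 3305730. Levels are given as CPM, the count of a miRNA relative to the total count of its library. Reads of the wild-type allele made up 0.00898% to 0.127% of miR-235-3p reads in these mutant libraries, and reads of both alleles were summed for each arm. The mutant library of 24 h stood apart: 14 of 217 miRNAs tested were there over 1.5 times their next highest level, against 0 to 6 in each of the other 8 libraries. lin-4-5p was at 1080 CPM at 24 h and at most 471 CPM elsewhere, miR-788-5p at 1254 and at most 569 CPM, and miR-48-3p at 494 and at most 192 CPM. What set this library apart was not tested, and several contrasts are given with and without it. In whole animals fewer cells of a type and less RNA per cell cannot be told apart. The tissue-bound miRNAs were all present, with muscle miR-1-3p at 27668 to 39850 CPM, intestinal miR-60-3p at 56.2 to 123 CPM, and neuronal lsy-6-3p at 13.9 to 27.9 CPM.

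In the mutant the mid-course level of miR-235-3p lay within the range of its flanks. It stood at 17331, 17626 and 22681 CPM at 22, 23 and 24 h, and at 21849, 18572 and 15838 CPM at 19, 20 and 21 h. At 25, 26 and 27 h it was 25664, 25140 and 23171 CPM. The mid-course values were all above the 21 h library and all below the 3 late ones. The means were 19212 ± 3007 CPM (SD, n = 3) and 21705 ± 3844 CPM (SD, n = 6), and their difference did not pass an exact permutation test over all 84 assignments (two-sided p = 0.333, smallest possible 0.0119). On the log2 scale the fit across all miRNAs gave -0.26 ± 0.13 (SE, 95% interval -0.56 to 0.03, edgeR adjusted p = 0.436).

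In N2 the same contrast was -1.10 ± 0.21 (SE, adjusted p = 0.0150), a 2.15-fold lower level at mid-course. N2 stood at 9537, 5159 and 12668 CPM at 22, 23 and 24 h and at 16242 to 22619 CPM in the flanks, with no overlap. The paper already reports a steep wild-type decline in this same time course, so the N2 contrast is no separate evidence of it. The strains' contrasts differed by 0.85 ± 0.24 on the log2 scale (mutant minus N2, 95% interval 0.34 to 1.35), with an adjusted p of 0.288 over all 217 miRNAs, which does not pass the threshold of 0.05. Leaving out single libraries moved this adjusted p between 0.0685 and 0.962.

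**Figure D1:**
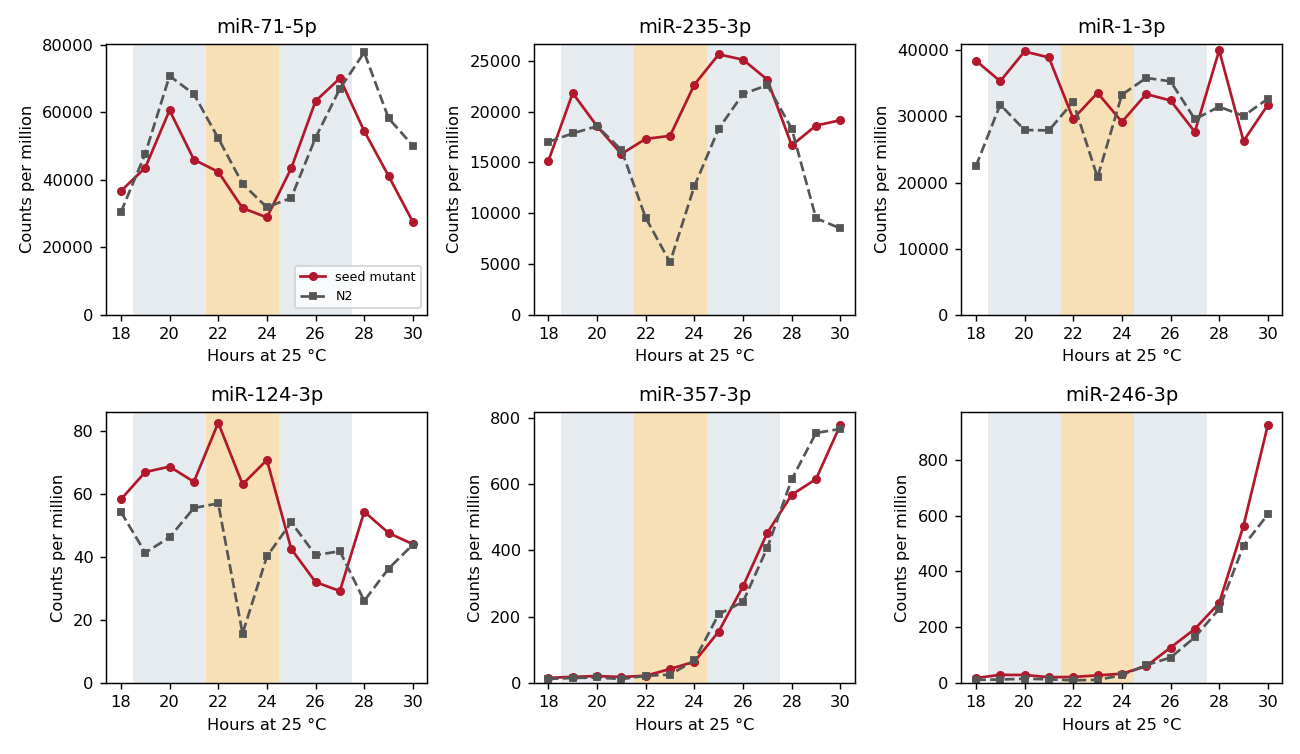
Levels of 6 miRNAs in CPM (linear axes from 0) against hours at 25 °C, with 1 library per point, in the seed mutant (red circles) and N2 (grey squares). The orange band marks 22 to 24 h and the grey bands the flanking hours. miR-235-3p reached 5159 CPM at 23 h in N2 and 17626 CPM in the mutant, whereas miR-71-5p was low at 24 h in both strains.

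miR-235-5p, the passenger, had too few reads to be fitted. There were 19 reads in the 9 mutant libraries, of which 11 came from the 24 h library (3.89 CPM, exact Poisson 95% interval 1.94 to 6.96 CPM). The 19 h and 20 h libraries had 3 reads each, and those of 21, 23, 25 and 27 h had 0, with upper limits of 0.862 to 1.25 CPM. The difference of the means, 1.06 CPM higher at mid-course, did not pass an exact permutation test (two-sided p = 0.310) and turned to -0.177 CPM without the 24 h library.

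Across the 217 miRNAs, 0 passed an adjusted p of 0.05 in the mutant (0%), in either direction, by edgeR's quasi-likelihood test. At an unadjusted p under 0.05 there were 25 (11.5%), of which 12 were higher and 13 lower at mid-course. The same design gave 8 calls by DESeq2 (3.69%), 4 by limma on log2 values with a pseudocount of 8 (1.84%), and 0 with a pseudocount of 1. Those of DESeq2 were miR-35-3p, miR-36-3p, miR-37-3p, miR-38-3p and miR-124-3p, which were higher, and miR-71-5p, miR-246-3p and miR-357-3p, which were lower. The lowest adjusted p of edgeR was 0.108. The median 95% interval, not adjusted for the number of miRNAs, reached 0.38 to either side of an estimate on the log2 scale. Differences smaller than this were mostly not detectable with 9 libraries, and larger ones, up to 1.40 in size, were not called either. Since the edgeR test called none, the miRNAs below are given by their values, in the order of their roles, and not as changes.

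Those with the smallest p among higher values were led by the miR-35 family, whose guides share 1 seed and are needed in the embryo, where they are most abundant. miR-35 to miR-41 are made from 7 neighbouring hairpins on the plus strand of chromosome II, and miR-42 from a second group of hairpins on that chromosome. Of the 8 family guides, 7 passed the filter on low counts, and all 7 had a positive contrast, with a median of 0.48 on the log2 scale against 0.01 over all 217 miRNAs. The guides are close in sequence, so reads could in part be shared between them, and members of 1 cluster are not independent. The list was assembled with earlier results of these data known.

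miR-36-3p was at 347, 404 and 346 CPM at 22, 23 and 24 h. It was at 230, 178 and 249 CPM in the 3 hours before and at 238, 224 and 192 CPM in the 3 hours after. All 3 mid-course libraries lay above all 6 flanks, and the gap between 22 h and 21 h exceeded counting error (intervals 325 to 369 and 234 to 264 CPM). The fitted difference was 0.66 ± 0.14 (SE, 95% interval 0.35 to 0.97), or 1.58-fold, with an adjusted p of 0.108 by edgeR and 0.0112 by DESeq2.

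miR-38-3p had the largest contrast of the family. It was at 88.9, 75.1 and 97.2 CPM at mid-course, against 33.2, 41.9 and 66.6 CPM before and 31.9, 49.6 and 39.0 CPM after. The 21 h library came closest, and its interval (59.1 to 74.8 CPM) met that of the 23 h library (65.7 to 85.5 CPM). The fitted difference was 0.90 ± 0.23 (SE), a 1.87-fold higher level with an adjusted p of 0.108.

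miR-35-3p and miR-37-3p followed a flatter course on the late side. miR-35-3p was at 361, 414 and 382 CPM at mid-course, at 192 to 236 CPM in the early flank and at 287 to 338 CPM in the late one. miR-37-3p was at 329, 344 and 351 CPM, against 187 to 236 and 253 to 286 CPM. Neither overlapped its flanks, and their contrasts were 0.51 ± 0.12 and 0.45 ± 0.11 (SE), both with an adjusted p of 0.108.

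miR-39-3p, the most abundant of the family here by CPM, was at 631, 720 and 615 CPM at mid-course and at 383 to 518 CPM in the flanks. miR-40-3p was at 72.9, 89.2 and 95.1 CPM and at 39.6 to 68.0 CPM in the flanks. For both the mid-course libraries again lay above every flank, with contrasts of 0.41 ± 0.12 and 0.48 ± 0.16 (SE) and adjusted p-values of 0.161 and 0.270. miR-42-3p, at 19.9 to 20.2 CPM at mid-course, overlapped its flanks of 12.4 to 22.2 CPM (0.27 ± 0.18, adjusted p = 0.489). For that hairpin the 5p arm was the more abundant here, with a mid-course mean of 253 CPM. miR-41-3p did not pass the filter: it had 28 reads in the 9 libraries, 15 of them at 24 h.

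**Figure D2:**
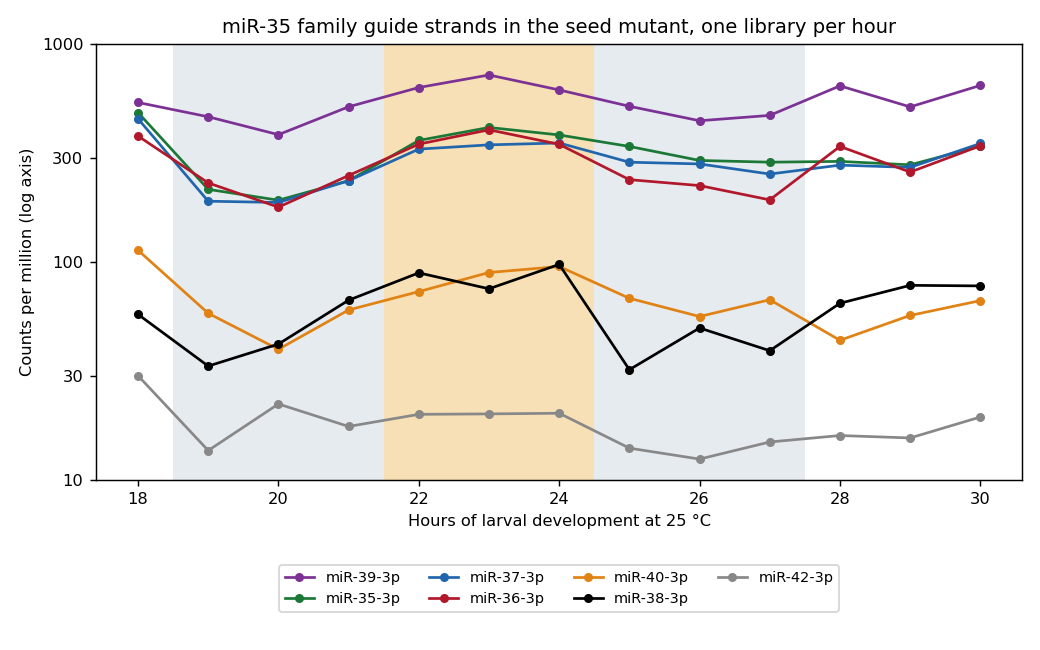
CPM (log axis) of the 7 tested miR-35 family guides against hours at 25 °C in the seed mutant, with 1 library per point. In the orange band (22 to 24 h) miR-35-3p to miR-40-3p lie above all of their own values in the grey bands (the flanking hours), while miR-42-3p overlaps. At 18 h, outside the contrast, miR-35-3p was at 484 CPM.

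The summed guides of the family were at 1851, 2067 and 1912 CPM at mid-course, with a mean of 1943 ± 111 CPM (SD, n = 3). The flanks had 1045 to 1495 CPM and a mean of 1301 ± 157 CPM (SD, n = 6), a ratio of 1.49. The sum at 18 h was 2055 CPM, as high as at mid-course, and at 28, 29 and 30 h it was 1672, 1473 and 1838 CPM. The series ends there, so whether a second hump followed cannot be told.

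Over all 217 miRNAs, 6 had all 3 mid-course libraries above all 6 flanks by CPM of the library total (2.76%), and these were miR-35-3p to miR-40-3p. In the opposite direction 1 miRNA did not overlap (0.461%), which was miR-71-5p. The TMM factors were 1.05 at 22 h and 0.89 and 0.91 at 26 and 27 h. With CPM divided by them, miR-37-3p and miR-40-3p overlap a late flank, so the set depends on the scaling. Without the 24 h library the family's median contrast was 0.50 and all 7 guides stayed positive. Without the 21 h library the family's median was 0.51, and the adjusted p of miR-36-3p and miR-38-3p became 0.0423 and 0.0119. These were the lowest of 9 single leave-outs, over which the adjusted p reached 0.293 for miR-36-3p and 0.361 for miR-38-3p. In N2 the 7 guides were likewise all positive (median 0.77, 0 past the threshold), but 0 of the 7 were free of overlap. None of the 7 differed between the strains past the threshold.

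The 5p arms of the miR-35 to miR-41 hairpins, taken as their passengers, had their highest level of the 9 hours at 21 h or 22 h where tested. For miR-41 the 5p arm was the more abundant here, with a mid-course mean of 50.4 CPM against 2.57 CPM for miR-41-3p. Of the 3p arms, miR-35-3p to miR-40-3p had their highest level of the 9 hours at 23 h or 24 h. At 18 h, before these hours, miR-35-3p, miR-37-3p and miR-40-3p were higher than at any of them, at 484, 453 and 113 CPM. Of the 7 listed 5p arms, 4 passed the filter, all with positive contrasts (median 0.56) and none past the threshold. miR-41-5p was at 53.7, 59.8 and 58.1 CPM at 21, 22 and 23 h and at 33.2 CPM at 24 h, while the other 5 of the 9 hours lay between 21.1 and 31.3 CPM. miR-39-5p was at 50.2, 38.1 and 44.6 CPM at 21, 22 and 23 h and at 11.2 to 19.0 CPM in the other 6 libraries. Their high hours were thus 21 to 23 h, of which 21 h counts as a flank, and the contrasts were 0.59 ± 0.28 and 0.52 ± 0.46 (SE).

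With all windows moved 1 h earlier (21 to 23 h against 18 to 20 h and 24 to 26 h), 7 miRNAs passed in the mutant (3.23%). miR-39-5p rose by 1.32 ± 0.22, miR-41-5p by 1.01 ± 0.15 and miR-37-5p by 0.99 ± 0.23 on the log2 scale (SE), with adjusted p-values of 0.00493, 0.00321 and 0.0327. let-7-5p, miR-240-5p and miR-237-3p also rose, and miR-71-3p fell by 0.77. In those windows the guide miR-36-3p was at 0.30 (adjusted p = 0.661) and miR-38-3p at 0.55 (adjusted p = 0.506). miR-39-3p was at 0.31, and miR-35-3p, miR-37-3p and miR-40-3p were close to 0, at 0.05, 0.03 and 0.03. The 5p arms of miR-42 to miR-44 had their highest level at 21 h in the sum of the 3 (1081 CPM) and at 22 h a sum of 962 CPM, and their contrasts ran from -0.23 to 0.05.

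*let-7* is the guide that times the passage to adult fates, and its level climbs late in larval life. In the mutant let-7-5p had a level of 830 CPM at 19 h, 10108 CPM at 21 h, 20490 CPM at 23 h and 28574 CPM at 26 h. The mid-course mean lay between those of the early and late flanks, and the contrast was 0.72 ± 0.52 (SE, adjusted p = 0.536). In N2 let-7-5p rose by 1.93 ± 0.34 (adjusted p = 0.0150), having been at 8539 to 35386 CPM at mid-course and 2991 CPM at 21 h. The difference of the contrasts, -1.23 ± 0.71 (SE), had an adjusted p of 0.595.

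The passenger let-7-3p was at 113, 84 and 94.4 CPM at mid-course in the mutant, but already at 119 CPM at 21 h. The other 5 flanks had 9.14 to 45.5 CPM. With the 21 h library the contrast was 1.09 ± 0.62 (SE, adjusted p = 0.446), and without it 1.82 ± 0.36 (adjusted p = 0.0399). Its removal favours a higher contrast, since it held the highest flanking value. Over the 9 single leave-outs the adjusted p ran from 0.0399 to 0.773. A later high level of 122 CPM was seen at 29 h and 101 CPM at 30 h, after 53.2 CPM at 28 h.

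lin-4-3p is the passenger of *lin-4*, which sets the timing of the early larval stages. It was at 29.9, 16.7 and 18.7 CPM at mid-course and at 20.3 CPM at 21 h, with 3.38 to 9.67 CPM in the other flanks. The contrast of 1.38 ± 0.42 (SE, adjusted p = 0.161) became 1.80 ± 0.29 (adjusted p = 0.0119) without the 21 h library. That library held the highest flanking value, so its removal favours a higher contrast. Over the 9 single leave-outs the adjusted p ran from 0.0119 to 0.401. At 28 h it stood at 6.0 CPM, and at 29 and 30 h at 25.6 and 24.3 CPM. Both passengers were thus high from 21 h to 24 h and again from 29 h, with lower values in between.

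**Figure D3:**
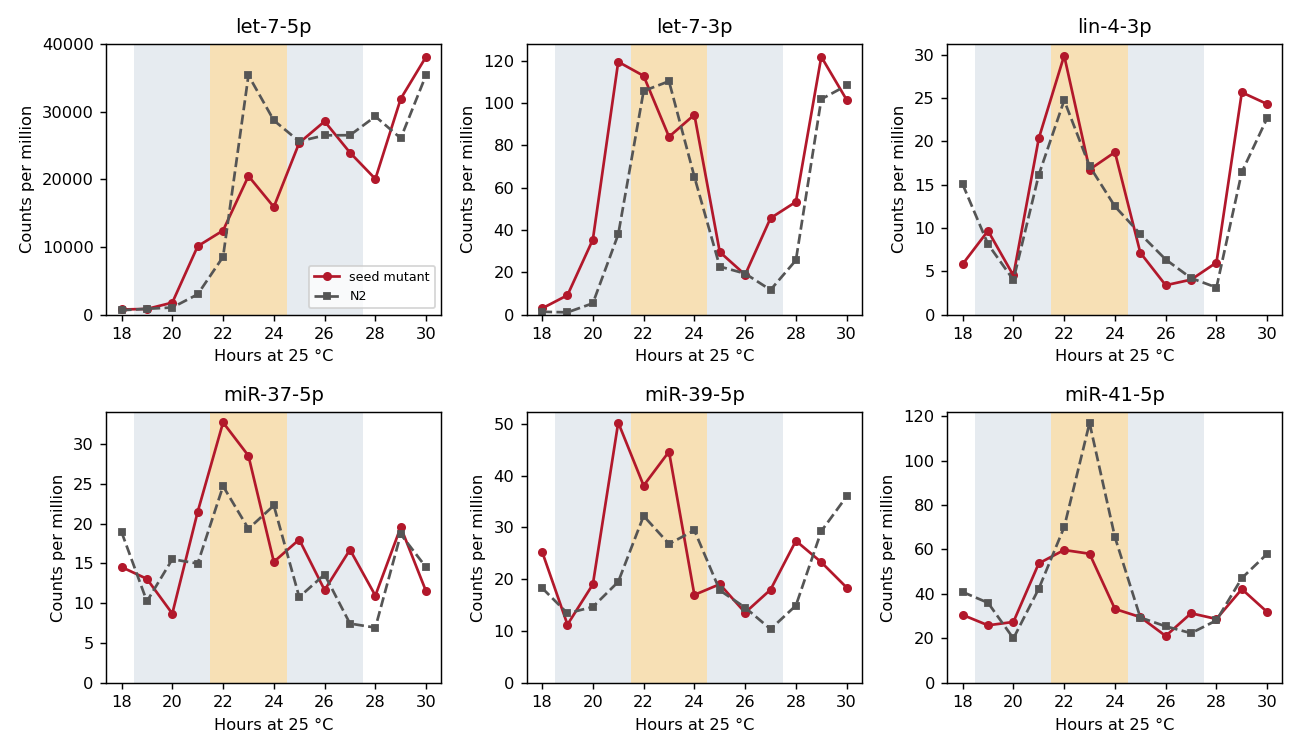
CPM (linear axes from 0) of let-7-5p and of 5 rarer arms against hours at 25 °C in the seed mutant (red circles) and N2 (grey squares), 1 library per point, with 22 to 24 h in orange and the flanks in grey. In the mutant let-7-3p, lin-4-3p, miR-37-5p, miR-39-5p and miR-41-5p were already above their 20 h level at 21 h, a flanking hour, and let-7-3p stood at 119 CPM there.

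Of the other guides of timing families, miR-237-5p, which shares its seed with lin-4, was at 10296 to 11886 CPM at mid-course and 6673 to 10403 CPM in the flanks. Its contrast was 0.31 ± 0.09 (SE, adjusted p = 0.161), and 0.72 ± 0.18 (adjusted p = 0.0551) in N2. lin-4-5p had a contrast of 0.51 ± 0.27 (adjusted p = 0.436), and -0.04 ± 0.14 without the 24 h library, which took the median of the pair from 0.41 to 0.16. The remaining 6 let-7 family members, among them miR-241-5p and miR-48-5p, had contrasts from -0.13 to -0.03, with mid-course means between those of the flanks. By total counts in place of TMM scaling, 5 of the 7 let-7 family members had positive values against 1 by TMM, so the signs of such small values depend on the scaling.

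miR-71-5p, a guide that promotes longevity and stress resistance, was the miRNA whose mid-course libraries all lay below the flanks. It was at 42326, 31578 and 28793 CPM at 22, 23 and 24 h. Before, it was at 43532, 60569 and 45928 CPM, and after, at 43359, 63300 and 70052 CPM. The 22 h library was close to the 25 h and 19 h ones. The contrast was -0.75 ± 0.20 (SE, 95% interval -1.19 to -0.30, edgeR adjusted p = 0.108, DESeq2 0.0232), a level 1.68-fold lower. Its course went down again from 54386 CPM at 28 h to 41109 and 27460 CPM at 29 and 30 h. N2 had a contrast of -0.46 ± 0.26 (adjusted p = 0.385), and the difference between the strains was -0.29 ± 0.34 (adjusted p = 0.772).

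The passenger miR-71-3p was at 358 and 334 CPM at 22 and 23 h, its lowest values of the 9 hours, and at 776 CPM in the 24 h library, its highest. It was lower still at 29 and 30 h, at 312 and 266 CPM. The contrast was -0.30 ± 0.25 (SE, adjusted p = 0.616), and -0.76 ± 0.14 (adjusted p = 0.0692) without the 24 h library. In the windows 1 h earlier, where 24 h is a flank, it fell by 0.77 on the log2 scale (adjusted p = 0.0243).

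The miR-35 family, miR-71-5p, miR-247-3p and miR-788 are listed together for their sensitivity to EBAX-1, an adapter of a ubiquitin ligase that brings about the loss of certain miRNAs. The list comes from another experiment of the study, and miR-235, which the study also counts among them, was left out of the list and is given above (-0.26). The study takes the 5p arm of miR-788 as its guide, and reports that the passenger strand was not stabilized without EBAX-1. In the list stands miR-788-3p, the more abundant arm here, so its value is not that of an arm reported as sensitive. Of the list's 11 members 10 were tested (median 0.46), 9 with positive contrasts, miR-788-3p among them, and miR-71-5p negative. miR-788-3p was at 885, 917 and 732 CPM at mid-course and at 792 and 718 CPM at 21 h and 25 h, with 417 to 515 CPM in the outer flanks, a contrast of 0.50 ± 0.20 (SE, adjusted p = 0.357). The arm that the study takes as the guide, miR-788-5p, had 0.48 ± 0.32 with its highest value at 24 h, and -0.17 ± 0.17 without that library. miR-247-3p was at 92.8, 119 and 156 CPM and at 74.5 to 118 CPM in the flanks, a contrast of 0.35 ± 0.19 (adjusted p = 0.436), and 0.19 ± 0.19 without the 24 h library.

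A further set of low values came from miRNAs with their highest levels in the late flank. miR-357-3p was at 17.5 to 20.3 CPM in the early flank and at 21.3, 41.7 and 63.6 CPM at mid-course. In the late flank it was at 155, 291 and 453 CPM, and it was at 778 CPM by 30 h. miR-246-3p was at 20.1 to 28.5 CPM, then at 21.0, 26.6 and 32.5 CPM, then at 59.5, 126 and 193 CPM. Their contrasts of -1.0 ± 0.26 and -1.18 ± 0.31 (SE, both adjusted p = 0.108) describe an upward bend. For both, the mid-course mean lay between those of the early and late flanks and not below both. miR-357-3p had risen by 23 h, from 21.3 to 41.7 CPM.

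miR-5592-3p was rarer still, with 1 to 5 counts in each library of the early flank, 2, 9 and 21 counts at mid-course and 84, 207 and 483 counts in the late flank. Its contrast was -1.40 ± 0.56 (SE, adjusted p = 0.344). The same bend was measured in N2, with -0.93 ± 0.32 for miR-357-3p (adjusted p = 0.140) and -1.31 ± 0.29 for miR-246-3p, which passed there (adjusted p = 0.0296). The mutant minus N2 differences of miR-357-3p, miR-246-3p and miR-5592-3p ran from -0.08 to 0.13. In the list of 10 tested late risers 3 were positive and 7 negative (median -0.26), and 0 had a mid-course mean below both flanks.

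Such a bend can also be downward. miR-124-3p, found in ciliated sensory neurons, was at 63.8 to 68.6 CPM in the early flank, at 82.5, 63.0 and 70.7 CPM at mid-course and at 42.5, 32 and 29.1 CPM in the late flank. The 23 h library lay below all 3 early ones. The contrast was 0.50 ± 0.12 (SE, edgeR adjusted p = 0.108). In N2 it was -0.29 ± 0.26 (adjusted p = 0.585), and the difference of 0.80 ± 0.28 had an adjusted p of 0.595. miR-56-5p (0.39 ± 0.14, adjusted p = 0.329) had the same order, with 318 to 403 CPM at mid-course, 296 to 355 CPM before and 188 to 229 CPM after. Of the other neuronal miRNAs, miR-790-5p and miR-791-3p had contrasts of 0.23 and 0.48, with their highest values at 24 h, and of 0.06 and 0.04 without that library. lsy-6-3p had -0.10. None passed, and the median of the 4 neuronal miRNAs was 0.35 with the 24 h library and 0.07 without it.

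**Figure D4:**
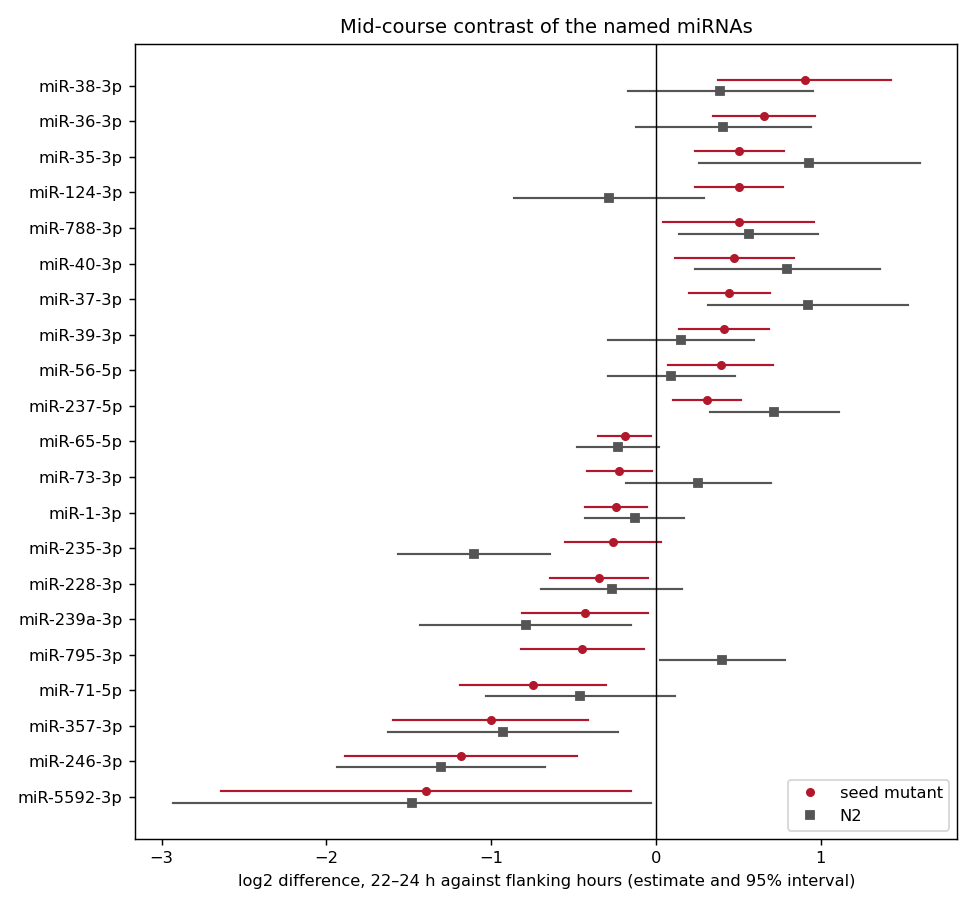
Log2 difference between 22 to 24 h and the flanking hours for the 10 miRNAs with the smallest p in each direction among miRNAs averaging 50 counts or more, and for miR-235-3p, with 95% intervals from edgeR, in the seed mutant (red circles) and N2 (grey squares). miR-235-3p is at -0.26 in the mutant and -1.10 in N2. The largest distances between the strains are those of miR-235-3p (0.85) and miR-795-3p (-0.85), and neither passed its test.

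The other low values were small in size. Muscle miR-1-3p was at 29180 to 33584 CPM at mid-course and 27668 to 39850 CPM in the flanks (-0.24 ± 0.08, adjusted p = 0.271). miR-65-5p and miR-73-3p had contrasts of -0.19 ± 0.07 and -0.22 ± 0.09 (adjusted p = 0.339 and 0.344). miR-228-3p, the passenger of a glial miRNA, had 689 CPM at 19 h, 326 CPM at 24 h and 409 CPM at 27 h (-0.35 ± 0.13, adjusted p = 0.344). miR-239a-3p had -0.43 ± 0.17 (adjusted p = 0.344). Without the 24 h library miR-1-3p, miR-65-5p, miR-73-3p, miR-228-3p and miR-239a-3p had -0.19, -0.19, -0.10, -0.20 and -0.48. The opposite arms miR-1-5p, miR-65-3p, miR-73-5p, miR-228-5p and miR-239a-5p all had positive contrasts, of 0.06 to 0.63. Of these, miR-1-5p (124 CPM), miR-65-3p (27.2 CPM) and miR-73-5p had their highest value at 24 h. Without that library their contrasts were -0.34, -0.06 and 0.04. The other opposite arms tested were miR-237-3p (0.24), miR-56-3p (0.13) and miR-5592-5p (-0.85). miR-56-3p was also highest at 24 h, and its contrast was -0.24 without that library. Those of miR-124, miR-246 and miR-357 had 65, 36 and 26 reads in the 9 libraries, too few for the test.

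miR-795-3p, the passenger of a let-7 family guide, was at 26.7, 39.0 and 26.5 CPM at mid-course and 28.2 to 52.8 CPM in the flanks of the mutant (-0.45 ± 0.17, SE, adjusted p = 0.339). In N2 its contrast was 0.40 ± 0.17, and the difference of -0.85 ± 0.23 shared the lowest adjusted p of that test with miR-235-3p, 0.288. Leaving out the mutant 23 h library gave -1.12 with an adjusted p of 0.0459. Over all 18 single leave-outs the difference ran from -1.12 to -0.70 and its adjusted p from 0.0459 to 0.962. The next in order were miR-124-3p, miR-241-3p (-0.74 ± 0.28) and miR-43-3p (0.84 ± 0.33), each with an adjusted p of 0.595. In all, 0 of 217 miRNAs differed between the strains at an adjusted p of 0.05 by edgeR (0%), and 13 at an unadjusted p under 0.05 (5.99%).

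In N2 the contrast passed for 7 miRNAs (3.23%). Of these, let-7-5p, let-7-3p, miR-41-5p, miR-39-5p and miR-240-5p rose and miR-235-3p and miR-246-3p fell. In N2 11 miRNAs had all mid-course libraries above all flanks (5.07%) and 3 below (1.38%), and 0 of these 14 were among the 7 of the mutant. Whether the sets differ was not tested, nor whether the strains were at the same stage at each hour. By CPM of the library total, let-7-3p, miR-37-5p, miR-39-5p and miR-41-5p were free of overlap in N2, where they stayed lower at 21 h. By the same measure miR-35-3p to miR-40-3p were free of overlap in the mutant.

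Several families lay near the middle. The miR-58 family guides, the most abundant in these libraries, ran from -0.17 to 0.02, with miR-58a-3p at 134686 to 199429 CPM. The miR-229 cluster guides were all 4 negative (-0.20 to -0.14, median -0.18), also by total counts (median -0.09), with 0 past the threshold. Their median was -0.09 without the 24 h library. The miR-51 family list of 9 arms, which holds the rarer 5p arms of miR-54, miR-55 and miR-56 beside their 3p arms, had 8 positive values and a median of 0.29, which was -0.03 without the 24 h library. miR-54-3p was at 7832 CPM at 24 h, against 2042 and 2072 CPM in the other mid-course libraries, and miR-51-5p at 2305 CPM against 789 and 800 CPM. Their contrasts of 0.54 and 0.37 became -0.46 and -0.31 without that library. For the 4 listed miR-2 family arms the median of 0.22 became 0.01 without it. In that list miR-43-3p and miR-797-5p are the rarer arms of their hairpins.

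**Figure D5:**
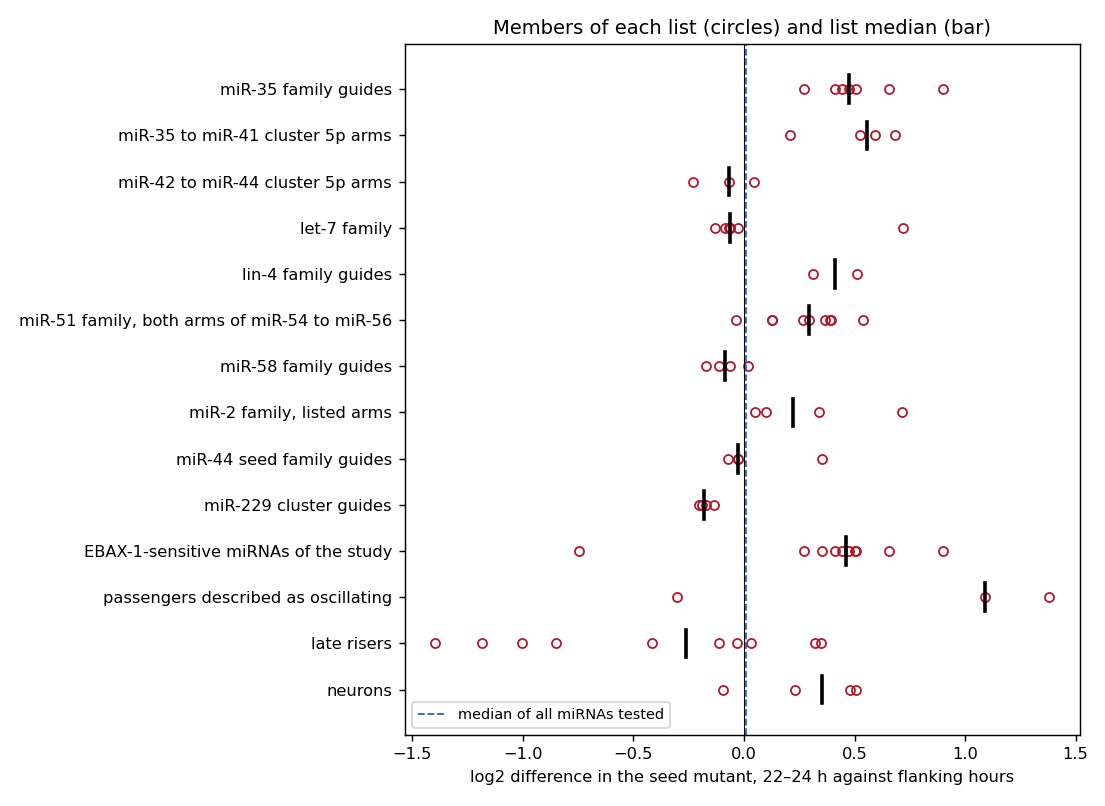
Log2 difference between 22 to 24 h and the flanking hours in the seed mutant for the tested members of 14 lists (circles) with the list median (black bar). The dashed line is the median of all 217 miRNAs, 0.01. The miR-35 family guides lie between 0.27 and 0.90, and no circle passed the test.

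Where both arms of a hairpin were tested, 49 of 77 hairpins had contrasts of 1 sign (63.6%). The arms differed in size, with a median absolute contrast of 0.13 for the more abundant and 0.24 for the rarer arm, whose counting error is larger. All 10 tested arms of the mir-35 to mir-41 hairpins were positive (median 0.52), and 3 of the 6 from mir-42 to mir-44. By CPM of the library total, the mid-course mean exceeded both flank means for 74 of 217 miRNAs and lay below both for 30. Under that scaling 144 of the 217 contrasts were positive, against 113 by TMM, so the balance of such counts shifts with the scaling. In all, 48 miRNAs had their highest level of the 9 hours in the 24 h library, the most of any hour.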

How the data were processed

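The authors aligned adapter-trimmed small RNA reads with Bowtie through QuasR to ce10 and counted them per mature miRNA (miRBase entries lifted to that build), keeping reads with many matches. The deposited counts of 439 entries were used here, and both miR-235 alleles were summed per arm, leaving 437. The deposited log2 table (count scaled to the mean library total, with a pseudocount of 8) was not used. No Bowtie version is given in the sources used here.

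edgeR 4.0.16 in R 4.3.3 (TMM, filterByExpr by strain over 26 libraries, robust glmQLFit and glmQLFTest) fitted a mid-course term beside a linear hour term, within the 9 mutant libraries, within the 9 N2 libraries, and as strain by mid-course over both. Benjamini-Hochberg adjustment was over 217 miRNAs (99.99% of counts). SE is the estimate over the root of F. Levels are CPM of the library total, with exact Poisson 95% intervals that cover counting error only. The script was tested on simulated counts. Named were both arms of miR-235, the 10 of smallest p in each direction with a mean of at least 50 counts (none passed), the 5 of smallest p for the strain difference, their opposite arms, and list members. Members and lists were chosen with earlier results of these data known. Neighbouring hairpins lie within 10000 bases on 1 strand of WBcel235, where 210 of 217 arms found a gene by name. Alternatives were 0.01 as threshold, other scalings, filters, tests and windows, DESeq2 1.42.0, limma 3.58.1, own-allele reads and each library left out. CPM divided by TMM factors, list medians without the 24 h or 21 h library and single contrasts without the 24 h library were added after seeing the data.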

Additional observations from a re-analysis of the deposited data

Results flagged for a closer look

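Among 34 groups of 6 flanking libraries checked for single libraries far from the rest, 2 stood out, and chance flags about 1 in 20 groups. Both were the mutant 21 h library. let-7-3p was at 119 CPM there, with 9.14 to 45.5 CPM in the other 5 flanks, a gap of 0.67 of the range. lin-4-3p was at 20.3 CPM, with 3.38 to 9.67 CPM in the others, a gap of 0.63 of the range. Both values were close to the mid-course ones of the same arm, and that library also had the highest total, 4279734 counts.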

How the results depend on the processing

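The count of 0 calls in the mutant became 8 by DESeq2 (5 higher, 3 lower), 4 by limma with a pseudocount of 8, and 7 with windows 1 h earlier. It ran from 0 to 7 with single libraries left out, and the 7 came without the 21 h library (4 higher, 3 lower). It stayed 0 under the other scalings, filters and windows, with 1 fit of both strains, and with all 13 mutant libraries at a period of 7 h. The 7 calls in N2 became 20 by DESeq2, 0 at a threshold of 0.01, 3 without the linear term, 3 and 0 with windows 1 h earlier and later, 0 with the nearest 4 flanks, and 0 to 12 with single libraries left out (0 without the 20 h library, 12 without that of 21 h or 22 h). The strain difference gave 0 to 1 calls with libraries left out, the 1 being miR-795-3p without the mutant 23 h library. With the hour as a replicate block it gave 0 calls. The strains share only the hour, and residuals of the same hour correlated between -0.083 and 0.57 (6 of 9 over 0.1), with 2 of 9 hours correlating best with their own. The 7 miRNAs free of overlap became 17 after the linear trend was taken out (6 of the 7 among them), and 7 to 21 without single libraries (21 without that of 23 h, 15 without 21 h, 13 without 24 h or 26 h, 11 without 22 h), with all 7 among them in each of those leave-outs.

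Signs turned for let-7-5p (-0.028 without the linear term), miR-65-5p (0.015 in windows 1 h earlier), miR-235-3p (0.13 in windows 1 h later) and, in the strain difference, miR-43-3p (-0.12 in windows 1 h later). The miR-235-3p difference ran from -4227 to -1552 CPM and that of miR-235-5p from -0.177 to 1.77 CPM with single libraries left out, and only the latter turned sign, without the 24 h library. The cause was not tested. Scaling by total counts moved the median of all miRNAs from 0.01 to 0.10. Depth limits chiefly miR-235-5p, miR-41-3p and the 5p arms, and 1 library per hour limits the rest.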
